A study of Mus musculus with 18 samples.

Results

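Tuft cells are rare chemosensory cells of the intestinal epithelium, and 9 genes that mark them or carry out their work were followed here out of 55487 genes in the deposited count table. They were picked by symbol and not by a cut on a measured value, but with earlier results of these data known. They are the transcription factors Pou2f3 and Gfi1b, the taste-type signalling genes Plcb2 and Trpm5, the microtubule-associated kinase Dclk1 and the actin-binding protein Avil, the eicosanoid enzymes Alox5 and Ptgs1, and the cytokine Il25. Of these, 7 of 9 had enough reads to be tested, whereas Gfi1b and Il25 did not pass the filter on low counts. With that filter, none of the 7 passed an adjusted p of 0.05 by edgeR in any comparison over all 18 samples. Without it, in a fit that called more genes in all, Dclk1 passed in the mean of both agonist effects (adjusted p = 0.0372). The median log2 difference of the 7 genes was 0.14 under norepinephrine and 0.19 under UK14,304. Nearest to the threshold with the filter was Pou2f3, with a fold of 1.20 in that mean (adjusted p = 0.0871) and of 1.27 under UK14,304 (adjusted p = 0.139).

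The libraries were made from small intestinal organoids, which are epithelial cultures grown from crypts, of female wild-type C57BL/6 mice. After 4 passages the organoids received norepinephrine at 1 µM, a catecholamine that acts on α- and β-adrenergic receptors, with HCl as its vehicle, or UK14,304 at 1 µM, a selective α2-adrenergic agonist, with DMSO as its vehicle, for 4 days. Each agonist had 5 samples and each vehicle 4, numbered m1 to m5 in the titles, so that number m5 had no vehicle. The labels do not say whether samples of a group came from separate mice or cultures, and p-values then measure the spread between these samples, which may be technical. The libraries held between 21866149 and 27850373 counted reads. In 7 of 18 libraries between 1.83% and 3.06% of the counted reads came from 1 ribosomal RNA gene, against at most 0.619% in the other 11, and these 7 were 1 of 4 HCl, 3 of 4 DMSO, 2 of 5 norepinephrine and 1 of 5 UK14,304 libraries. Leaving out norepinephrine replicate 4 alone raised the number of genes called in the norepinephrine comparison from 16 to 2529, so values without it stand beside the results below where they alter a call of a named gene.

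Tuft cells sense luminal metabolites and parasites through G protein-coupled receptors. Phospholipase C beta, encoded by Plcb2, then releases calcium and the cation channel Trpm5 opens, as in taste cells. The cells answer by releasing IL-25, leukotrienes and prostaglandins, which act on immune cells below the epithelium. Pou2f3 is required for the lineage. Epithelial markers were abundant in the organoids, with Epcam at 1368 to 1493 CPM (counts per 1000000 library reads). Of the 6 leukocyte markers, Adgre1 had 0 counts in all 18 libraries, Cd3e, Cd79a and Cd52 at most 3, 5 and 12, Ptprc 8 to 33 and Itgam 58 to 100. Of the 5 mast cell markers, Cpa3 and Ms4a2 had 0 counts and Mcpt4 and Tpsb2 at most 4, whereas Kit, which marks other cells as well, had 857 to 1191. The 5 fibroblast and muscle markers, Dcn at 0 among them, had at most 5 counts each.

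Among the promoters listed by RefSeq for GRCm38.p6, which run from 250 bases before to 50 bases after a start site, 7 of the 9 genes matched with 8 promoters, and Pou2f3 and Il25 had no entry. Pou2f3 belongs to the POU family of octamer-binding factors, so the promoters were searched on both strands for the octamer ATGCAAAT and for its first 7 bases, ATGCAAA, which every octamer match also holds. The octamer was found in 1.74% of 32851 promoters and in 0 of the 8 promoters of these genes. The shorter motif was found in 4.63% of all promoters and in 1 of the 8, that of Avil, which held it once on each strand, beginning 115 and 15 bases before the start site. These are letter matches and no evidence of binding. The Avil promoter, at chr10:127000459-127000758 on the plus strand, is shown because it alone holds the motif, with the matches in capitals. The Dclk1 promoters, at chr3:55242114-55242413 and chr3:55461478-55461777 on the plus strand, are shown because the starts lie 219 kb apart and a count per gene adds transcripts from both.

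Avil: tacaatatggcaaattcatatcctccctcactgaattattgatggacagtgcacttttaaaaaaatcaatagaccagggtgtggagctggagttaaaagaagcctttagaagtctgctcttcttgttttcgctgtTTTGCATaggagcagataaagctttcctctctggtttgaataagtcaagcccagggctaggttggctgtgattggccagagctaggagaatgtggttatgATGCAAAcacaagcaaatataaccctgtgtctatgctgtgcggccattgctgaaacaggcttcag

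Dclk1, upstream start: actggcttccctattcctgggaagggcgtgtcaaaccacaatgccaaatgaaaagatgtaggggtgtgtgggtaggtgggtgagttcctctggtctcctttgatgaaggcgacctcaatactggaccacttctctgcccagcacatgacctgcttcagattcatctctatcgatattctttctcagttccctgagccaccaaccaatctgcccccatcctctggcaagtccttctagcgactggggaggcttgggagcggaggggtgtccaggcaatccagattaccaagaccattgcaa

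Dclk1, downstream start: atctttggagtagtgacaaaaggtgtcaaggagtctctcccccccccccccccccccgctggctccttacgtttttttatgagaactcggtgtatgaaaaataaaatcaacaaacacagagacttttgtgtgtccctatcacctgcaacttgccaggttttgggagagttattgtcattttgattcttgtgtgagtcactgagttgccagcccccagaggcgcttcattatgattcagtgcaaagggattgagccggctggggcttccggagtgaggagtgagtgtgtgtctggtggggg

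Levels were first compared between the genes as CPM per kilobase of exon, in which reads are divided by library size and by the summed length of all annotated exons of the gene. Avil (chr10:127000709-127020994) stood highest, at 2.57 ± 0.376 CPM per kilobase (SD over 18 libraries). Trpm5 (chr7:143069153-143094642) followed at 2.09 ± 0.224 and Pou2f3 (chr9:43123939-43210369) at 1.59 ± 0.235. Dclk1 (chr3:55242364-55539068) reached 1.18 ± 0.159 and Alox5 (chr6:116410077-116461178) 0.876 ± 0.193. Below them lay Ptgs1 (chr2:36230426-36252272) at 0.492 ± 0.118, Plcb2 (chr2:118707517-118728438) at 0.175 ± 0.0405 and Gfi1b (chr2:28609450-28621982) at 0.151 ± 0.0398. Il25 (chr14:54932695-54935837) was lowest at 0.0235 ± 0.0299. Per kilobase, the channel Trpm5 thus lay above Plcb2, the phospholipase upstream of it.

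**Figure D1:**
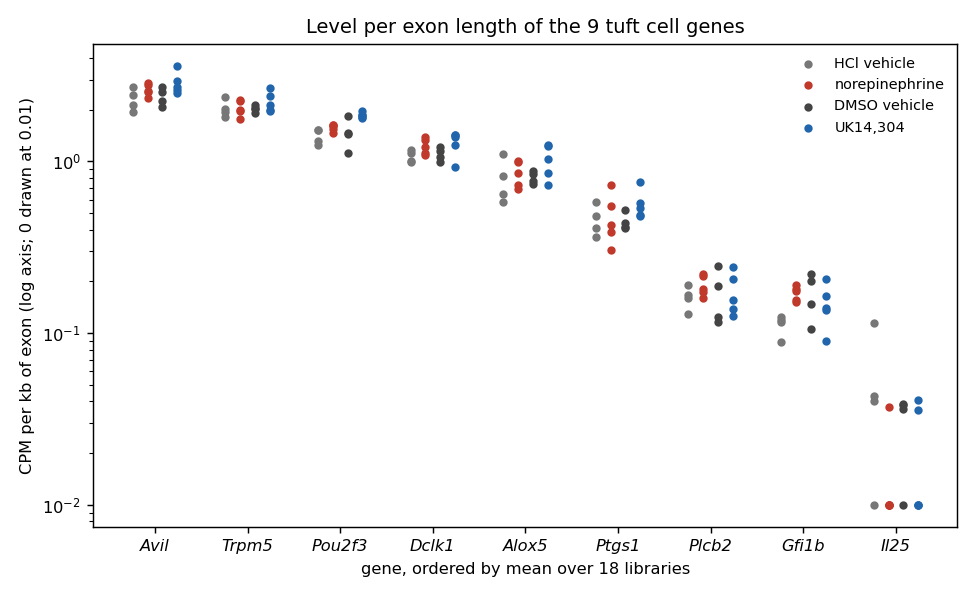
Level of each gene as CPM per kilobase of exon on a log axis, with 1 point per library coloured by group and genes ordered by their mean over 18 libraries. Neighbouring genes overlap in range except between Ptgs1 and Plcb2, and Il25 lies at 0 (drawn at 0.01) in 9 libraries.

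The ranges over the 18 libraries overlapped between all neighbours in this order except Ptgs1 and Plcb2. Within libraries the order was steadier: Trpm5 lay above Pou2f3, Pou2f3 above Dclk1, and Alox5 above Ptgs1 in 18 of 18 libraries, and Avil lay above Trpm5 and Dclk1 above Alox5 in 17 of 18. Plcb2 and Gfi1b could not be ranked, since Plcb2 was the higher in only 11 of 18. The place of Dclk1 depends on the scale. Its annotated exons sum to 15296 bases, against 3398 for Avil, and in CPM without division by length Dclk1 was the most abundant of the 9 genes, with a mean of 18.1 CPM. Exon overlaps with genes on the opposite strand were small: 220 bases of Trpm5 with Tssc4 (3.44% of its exon bases), 165 bases of Avil with Tsfm (4.86%), 148 of Ptgs1 (3.81%) and 114 of Dclk1 (0.745%), where reads could not be told apart by gene.

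Together the 9 genes made up between 43.2 and 63.5 CPM, or 0.00432% to 0.00635% of the reads. In HCl-treated organoids the sum was 43.2, 52.6, 45.9 and 50.1 CPM for m1 to m4, and under norepinephrine it was 47.1, 53.7, 48.7, 55.7 and 57.9 CPM for m1 to m5. In DMSO-treated organoids it was 47.5, 48.0, 52.5 and 48.2 CPM, and under UK14,304 it was 47.5, 59.0, 59.0, 57.4 and 63.5 CPM. The norepinephrine value was above that of the same-numbered vehicle in all 4 pairs, and the UK14,304 value in 3 of 4, the exception being m1, where both rounded to the same value. The groups overlapped in both comparisons. In bulk organoids a change in the number of tuft cells and a change in RNA per tuft cell cannot be told apart.

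**Figure D2:**
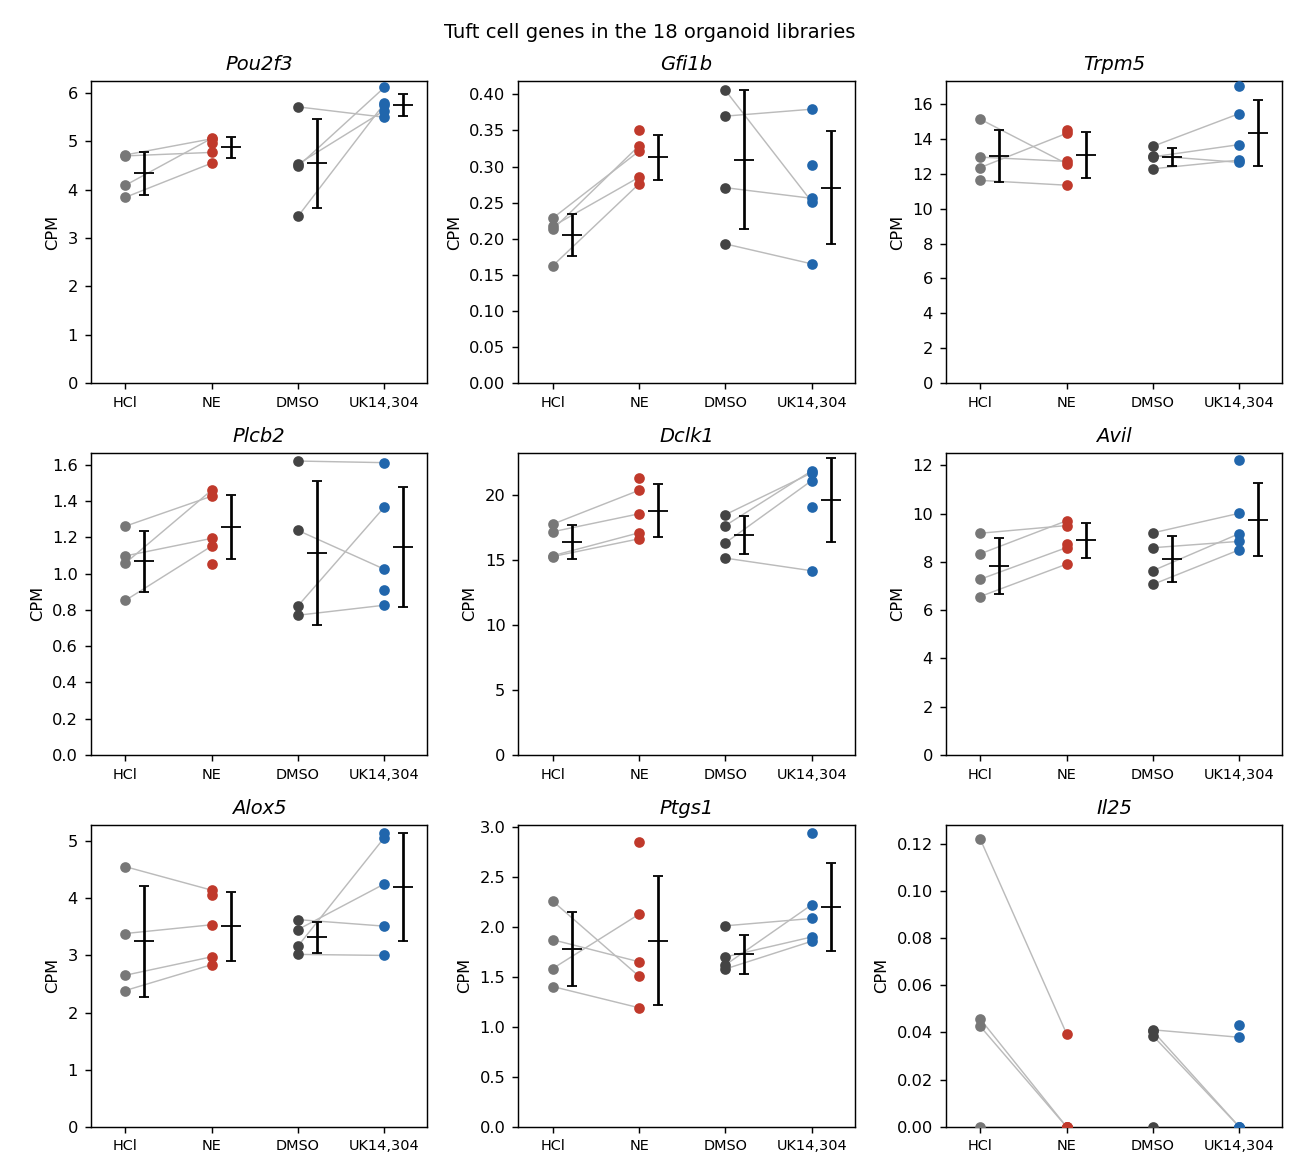
Level of each gene in CPM in each library, with 1 panel per gene and an axis from 0. Points are libraries, grey lines join libraries of the same number, and black bars give the mean ± SD of the group (not drawn for Il25, which has many values of 0). Pou2f3 under UK14,304 lies between 5.49 and 6.11 CPM, above 3 of 4 DMSO libraries.

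Pou2f3, the master transcription factor of the tuft lineage, had the strongest difference under the α2-agonist. In UK14,304-treated organoids it measured 5.63, 5.78, 5.49, 6.11 and 5.75 CPM, and in DMSO-treated organoids 4.52, 3.45, 5.71 and 4.48 CPM for m1 to m4. The 5 treated libraries lay close together and above 3 of the 4 vehicle libraries, and DMSO m3 alone lay within their range. The difference was 0.35 ± 0.11 on the log2 scale (SE; 95% confidence interval 0.12 to 0.57), a fold of 1.27, with an unadjusted p of 0.00427 and an adjusted p of 0.139 by edgeR's quasi-likelihood test over 15247 genes. It was higher in 3 of 4 pairs. Without DMSO replicate 3, the vehicle library within the treated range, the difference was 0.48 with an adjusted p of 0.0478 by edgeR. Without norepinephrine replicate 4 the difference was 0.35 ± 0.11, little changed, with an adjusted p of 0.0452. That fit called 8.08% of all genes, against 1.22% with all samples. Over 25 other settings and omissions the adjusted p ran from 0.0452 to 0.488.

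Under norepinephrine Pou2f3 measured 5.06, 4.54, 4.77, 5.05 and 4.95 CPM, against 4.09, 3.84, 4.69 and 4.71 CPM in HCl-treated organoids. The agonist value was the higher in 4 of 4 pairs, although the groups overlapped. The difference was 0.17 ± 0.11 on the log2 scale (interval -0.06 to 0.40) with an adjusted p of 0.627. Averaged over both agonists it was 0.26 ± 0.079 (0.09 to 0.42) with an adjusted p of 0.0871 by edgeR. Without DMSO replicate 3 the adjusted p was 0.0326. Without norepinephrine replicate 4 it was 0.0209, although the difference was little changed, at 0.27 ± 0.085. That fit called 27.9% of all genes, against 2.35% with all samples. Over 24 other settings and omissions the adjusted p ran from 0.0209 to 0.206.

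Dclk1, the most used tuft cell marker, measured 16.6, 20.4, 17.1, 18.6 and 21.3 CPM under norepinephrine and 15.3, 17.8, 15.3 and 17.2 CPM in HCl-treated organoids. Every pair was higher under norepinephrine, by a factor between 1.08 and 1.15. The difference was 0.18 ± 0.089 on the log2 scale (interval -0.01 to 0.36; adjusted p = 0.592). Under UK14,304 it measured 14.2, 21.1, 21.7, 21.9 and 19.1 CPM, against 15.2, 16.3, 18.5 and 17.7 CPM with DMSO. Of the treated libraries 4 lay above all vehicle libraries, whereas m1 was below all of them. The difference was 0.18 ± 0.087 (0.00263 to 0.37; adjusted p = 0.330). Averaged over both agonists Dclk1 differed by 0.18 ± 0.064 (0.05 to 0.31; adjusted p = 0.127). That adjusted p by edgeR was 0.0176 without norepinephrine replicate 4 and 0.0372 when no filter on low counts was set. It was 0.0475 without UK14,304 replicate 1, an omission that took out the treated library below all DMSO libraries. The fits without norepinephrine replicate 4 and without the filter called more genes in all. Over 24 other settings and omissions the adjusted p ran from 0.0176 to 0.269.

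Avil, which bundles actin in the apical tuft, measured 8.59, 9.50, 7.90, 9.70 and 8.74 CPM under norepinephrine and 7.28, 9.19, 6.56 and 8.33 CPM with HCl. Under UK14,304 it measured 8.85, 10.01, 9.17, 8.50 and 12.2 CPM and with DMSO 8.59, 9.20, 7.64 and 7.07 CPM. It was higher in 4 of 4 pairs with either agonist, although the groups overlapped. The differences were 0.14 ± 0.10 (interval -0.07 to 0.35; adjusted p = 0.645) under norepinephrine and 0.21 ± 0.098 (0.01 to 0.42; adjusted p = 0.321) under UK14,304.

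The chemosensory genes had small or uncertain differences. Trpm5 lay between 11.3 and 14.5 CPM under norepinephrine and between 11.6 and 15.1 CPM with HCl, and the difference was -0.04 ± 0.081 (interval -0.21 to 0.13; adjusted p = 0.866). Under UK14,304 it lay between 12.7 and 17.0 CPM and with DMSO between 12.3 and 13.6 CPM, and the difference was 0.08 ± 0.080 (-0.08 to 0.25; adjusted p = 0.642). These intervals leave room for a fold of at most 1.09 and 1.19 upward. Plcb2 was counted 19 to 42 times per library. It lay between 1.05 and 1.46 CPM under norepinephrine and between 0.851 and 1.26 CPM with HCl, higher in 4 of 4 pairs, with a difference of 0.30 ± 0.20 (-0.12 to 0.73; adjusted p = 0.631). Under UK14,304 it was higher in 2 of 4 pairs, with a difference of 0.10 ± 0.20 (-0.32 to 0.52; adjusted p = 0.834).

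For both eicosanoid enzymes the treated and vehicle groups overlapped. Alox5, which starts leukotriene synthesis, measured 3.00, 5.06, 3.51, 4.25 and 5.14 CPM under UK14,304 and 3.02, 3.16, 3.63 and 3.45 CPM with DMSO. The treated libraries spanned the whole vehicle range, and 2 of 4 pairs were higher. The differences were 0.25 ± 0.13 (interval -0.03 to 0.53; adjusted p = 0.393) under UK14,304 and 0.05 ± 0.14 (-0.24 to 0.34; adjusted p = 0.906) under norepinephrine. Ptgs1, the constitutive cyclooxygenase, lay between 1.86 and 2.94 CPM under UK14,304 and between 1.58 and 2.01 CPM with DMSO and was higher in 4 of 4 pairs, but the difference of 0.19 ± 0.16 (-0.15 to 0.54) had an adjusted p of 0.587. Under norepinephrine it was lower in 3 of 4 pairs, and the difference was -0.10 ± 0.17 (-0.46 to 0.26; adjusted p = 0.842).

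Gfi1b and Il25 were at the limit of the depth. Gfi1b, a zinc finger repressor also known from blood cells, had between 4 and 10 reads per library. It measured 0.329, 0.321, 0.285, 0.276 and 0.351 CPM under norepinephrine and 0.213, 0.228, 0.217 and 0.163 CPM with HCl. These groups did not overlap, a pattern with the agonist higher that was seen in 0.643% of the 15247 tested genes. Gfi1b is not among those genes, which have more reads. The reads came to 38 under norepinephrine (exact 95% Poisson interval 26.9 to 52.2) and 19 with HCl (11.4 to 29.7), or 0.312 CPM (0.221 to 0.429) against 0.204 CPM (0.123 to 0.319), and these intervals, which cover counting error only, overlapped. Fitted without the filter, the difference was 0.57 ± 0.47 (-0.35 to 1.48; adjusted p = 0.953). Under UK14,304 Gfi1b was higher in 1 of 4 pairs, with 35 reads against 31 with DMSO.

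Il25, the cytokine through which tuft cells alert innate lymphoid cells, had 0 to 3 reads per library. The reads summed to 5 over the 4 HCl libraries (exact 95% Poisson interval 1.62 to 11.7), 1 over the 5 norepinephrine libraries (0.0253 to 5.57), 3 over the 4 DMSO libraries (0.619 to 8.77) and 2 over the 5 UK14,304 libraries (0.242 to 7.22). A difference was not detectable at this depth.

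Taken as a list, 0 of the 7 tested genes passed the threshold of an adjusted p under 0.05 in the norepinephrine comparison, in which 0.105% of all tested genes did, and 0 of 7 in the UK14,304 comparison, in which 1.22% did. At an unadjusted p under 0.05 the count was 0 of 7 under norepinephrine, against 8.4% of all genes, and 3 of 7 under UK14,304, namely Pou2f3, Avil and Dclk1, against 14.8% of all genes. Averaged over both agonists the same 3 genes had an unadjusted p under 0.05, where 21.6% of all genes did, and 0 of 7 had an adjusted one, against 2.35%. DESeq2 with the same design also called 0 of 7 in these comparisons. Without norepinephrine replicate 4 the calls were 0 of 7 under norepinephrine, 1 of 7 (Pou2f3) under UK14,304 and 2 of 7 (Dclk1 and Pou2f3) in the mean, where 16.7%, 8.08% and 27.9% of 15161 genes were called. The median log2 difference of the 7 genes was 0.14 under norepinephrine, 0.19 under UK14,304 and 0.18 for the mean of both, where the median of all tested genes was -0.00774, -0.00432 and -0.00801. The difference was above 0 for 5 of 7 genes under norepinephrine and for 7 of 7 under UK14,304, against 47.3% and 48.7% of all genes. All pairs were higher for 4 of 7 genes under norepinephrine (5.32% of all genes) and for 2 of 7 under UK14,304 (14% of all genes).

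**Figure D3:**
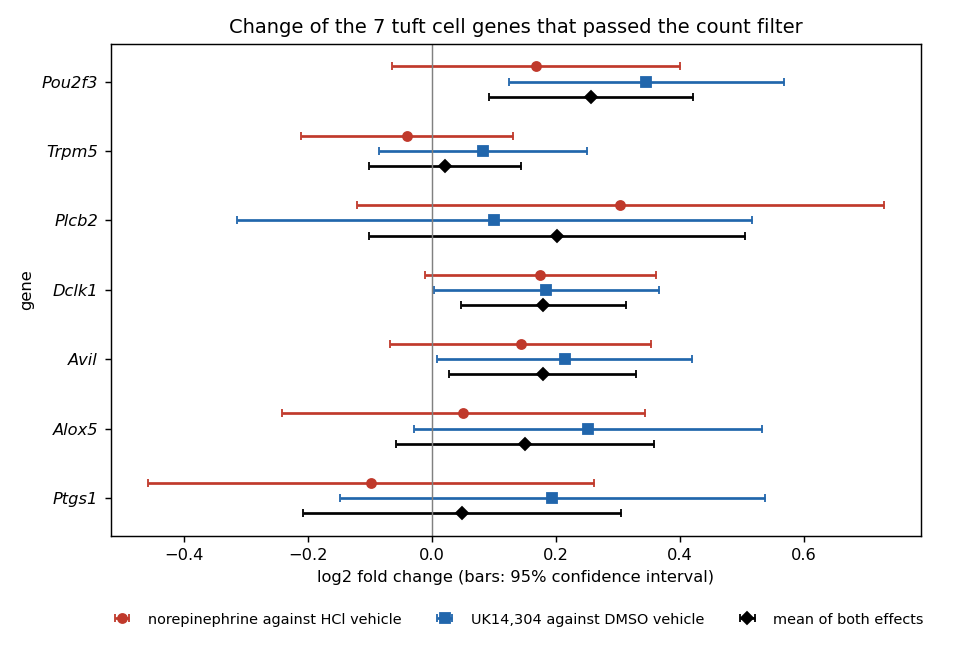
Difference of each of the 7 tested genes on the log2 scale, with points for norepinephrine against HCl, UK14,304 against DMSO and the mean of both, and bars for the 95% confidence interval. Under UK14,304 the intervals of Pou2f3, Dclk1 and Avil lie above 0 before adjustment over all genes, and under norepinephrine all 7 intervals include 0.

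The agonist effects were not shown to differ from each other for any of these genes. The largest difference between them, UK14,304 minus norepinephrine, was that of Ptgs1 at 0.29 ± 0.23 (interval -0.19 to 0.78), and that of Dclk1 was 0.01 ± 0.12 (-0.24 to 0.26). All 7 had an adjusted p of 1.00 in this comparison, in which 0% of all genes passed the threshold and 2.66% had an unadjusted p under 0.05. Between the vehicles, HCl minus DMSO was -0.05 ± 0.091 for Dclk1 (interval -0.24 to 0.15), 0.00076 ± 0.083 for Trpm5 (-0.17 to 0.18) and -0.06 ± 0.11 for Pou2f3 (-0.30 to 0.17). None of the 7 passed by edgeR, 0% of all genes did, and 0 of the 7 had an unadjusted p under 0.05, against 1.82% of all genes.

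The spread between libraries of a group, counting error included, limited what could be seen. The values given here also hold differences between the numbers, which the tests took out. The coefficient of variation within groups was 12.3% for Dclk1, 12.9% for Avil and 10.7% for Trpm5, where counting alone would give 4.73%, 6.81% and 5.50%. For Pou2f3 it was 10.2% against 9.05% from counting. It was 21.1% for Alox5, 24.1% for Ptgs1 and 24.6% for Plcb2, against 10.6%, 14.6% and 18.8%. The libraries with more ribosomal RNA held a median of 50.1 CPM over the 9 genes (47.5 to 57.9) and the others 52.6 CPM (43.2 to 63.5). With that split added to the model the UK14,304 difference was 0.37 ± 0.12 for Pou2f3, 0.26 ± 0.11 for Avil and 0.15 ± 0.099 for Dclk1, and 0 of 7 genes were called.

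A wider list of 37 genes that tuft cells use was followed in the same way, and 29 of them could be tested. The other 8, among them the taste G protein subunit genes Gnat3, Gng13 and Gnb3, the succinate receptor gene Sucnr1 and the acetylcholine synthesis gene Chat, had too few reads. None of the 29 had an adjusted p under 0.05 in any comparison by edgeR. DESeq2, which called more genes in all in the mean effect, called 2 there, Pla2g4a and Il4ra. Without norepinephrine replicate 4, edgeR called 3 of 29 under norepinephrine (Il13ra1 and Pla2g4a higher, Il4ra lower), 4 of 29 under UK14,304 (Pla2g4a and Sh2d7 higher, Il4ra and Ptpn6 lower) and 9 of 29 in the mean (Il13ra1, Pla2g4a, Itpr2, Bmx, Hpgds and Rgs13 higher, Il4ra, Ptpn6 and Matk lower), beside those same shares of all genes. At an unadjusted p under 0.05, 2 were higher and 2 lower under norepinephrine, and 7 were higher and 3 lower under UK14,304, where 2.83%, 5.56%, 6.12% and 8.68% of all genes were. The median log2 difference was 0.06 under norepinephrine and 0.14 under UK14,304. The 5 transcription factors and their cofactors had differences above 0 in 3 of 5 cases under norepinephrine and in 5 of 5 under UK14,304, and the 12 signalling proteins shared with blood cells in 6 of 12 and 9 of 12. The 4 tested chemosensory genes were above 0 in 3 of 4 and 4 of 4 cases, and the 5 eicosanoid synthesis genes in 3 of 5 with either agonist. Of the 3 tested cytokines and cytokine receptors, 1 of 3 was above 0 with either agonist.

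The 8 most abundant genes of the wider list were led by Il13ra1 and Pla2g4a. These averaged 105 and 88.4 CPM over the 18 libraries, against 18.1 CPM for Dclk1. In bulk organoids the reads of such genes need not come from tuft cells, and their cells of origin were not tested. Il13ra1, a subunit of the IL-13 receptor, measured 101 ± 9.22 CPM with HCl and 110 ± 15.1 CPM under norepinephrine, and 101 ± 2.68 CPM with DMSO and 106 ± 12.9 CPM under UK14,304 (SD, n = 4 and 5), and its mean difference was 0.09 ± 0.073 (adjusted p = 0.488), or 0.16 ± 0.052 (adjusted p = 0.0320) without norepinephrine replicate 4. Pla2g4a, the phospholipase that frees arachidonic acid for eicosanoid synthesis, measured 84.9 ± 6.48 CPM with DMSO and 93.5 ± 6.14 CPM under UK14,304, and its mean difference over both agonists was 0.11 ± 0.033 (adjusted p = 0.0793, or 0.00120 without norepinephrine replicate 4). Il4ra, the shared receptor chain for IL-4 and IL-13, measured 42.6 ± 2.50 CPM with HCl and 37.4 ± 3.74 CPM under norepinephrine, and its mean difference was -0.17 ± 0.049 (adjusted p = 0.0712, or 0.000342 without that library). Ptpn6, a tyrosine phosphatase, had a mean difference of -0.12 ± 0.038 (adjusted p = 0.103, or 0.0189 without it). Plcg2, a phospholipase C gamma, measured between 43.7 and 44.3 CPM in the means of all 4 groups.

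Lower on that list, Pou2af3 (given as Colca2 by the symbol table), a coactivator of Pou2f3, measured 14.9 ± 0.886 CPM with DMSO and 16.1 ± 1.57 CPM under UK14,304, with a mean difference of 0.12 ± 0.049 (adjusted p = 0.162). Itpr2, the calcium release channel downstream of phospholipase C, measured 12.9 ± 1.24 and 14.5 ± 1.06 CPM in the same groups, with a mean difference of 0.18 ± 0.060 (adjusted p = 0.108, or 0.0374 without norepinephrine replicate 4). Il17rb, a chain of the IL-25 receptor, measured 8.19 ± 1.56 and 6.68 ± 1.57 CPM, with a mean difference of -0.19 ± 0.089 (adjusted p = 0.213). Chosen after their values were seen, Bmx had a mean difference of 0.43 ± 0.13 (adjusted p = 0.0807, or 0.00670 without it), and Inpp5d and Vav1, signalling proteins of blood cells, had UK14,304 groups that lay wholly above the DMSO groups, a pattern of 1.72% of all genes, with adjusted p-values of 0.199 and 0.291. Under norepinephrine Inpp5d differed by -0.06 ± 0.17 and Vav1 by 0.03 ± 0.13. Of the 12 signalling proteins shared with blood cells, 9 were above 0 and 3 below under UK14,304. The lowest was Matk, at -0.31 ± 0.16.

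**Figure D4:**
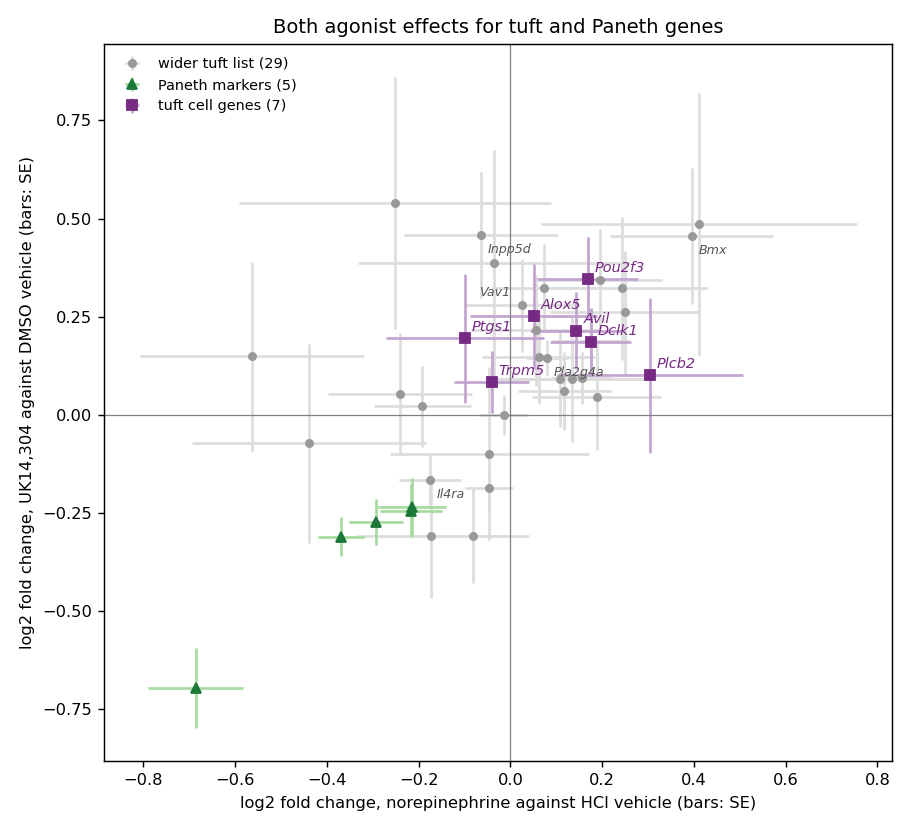
Difference on the log2 scale under norepinephrine (horizontal) and UK14,304 (vertical) for the 7 tested tuft cell genes, the 29 tested genes of the wider tuft list and the 5 Paneth markers, with bars of 1 SE in each direction. All 7 tuft cell genes lie above 0 under UK14,304 without passing the threshold, and the 5 Paneth markers lie below 0 with both agonists.

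Other epithelial lineages gave a scale for these values. All 5 Paneth markers fell in the mean of both agonist effects at an adjusted p under 0.05 (288 of 15247 genes, or 1.89%, fell), with Lyz1, the Paneth lysozyme, at -0.34 ± 0.036 (adjusted p = 4.14e-05). Of the 4 goblet markers 1 fell, Agr2 at -0.15 ± 0.026 (adjusted p = 0.00330), and Tff3 stood at -0.21 ± 0.064 (adjusted p = 0.0957). None of the 6 stem cell, 4 enterocyte or 5 enteroendocrine markers was called by edgeR, with medians of 0.00748, -0.10 and -0.02. An unadjusted p under 0.05 was found for 2 stem, 3 enterocyte and 0 enteroendocrine markers, where 21.6% of all genes had one. The stem markers ran from Ascl2 at -0.04 ± 0.058 to Olfm4 at 0.14 ± 0.055 (adjusted p = 0.156) and Slc12a2 at 0.17 ± 0.050 (adjusted p = 0.0861). The 6 leukocyte markers summed to between 3.36 and 4.83 CPM with HCl, 3.86 and 5.13 CPM under norepinephrine, 3.37 and 4.97 CPM with DMSO and 3.29 and 4.79 CPM under UK14,304, most of it Itgam, at 2.37 to 4.04 CPM over the 18 libraries, and the 5 mast cell markers to between 35.5 and 48.0 CPM, nearly all of it Kit. Ptprc, the leukocyte antigen CD45, which tuft cells also express, had 8 to 33 reads per library and a mean difference of 0.50 ± 0.22 (adjusted p = 0.205).

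The 7 tested genes varied together only in part. Over the 18 libraries the mean Pearson correlation of log2 CPM over their 21 pairs was 0.37 (range -0.14 to 0.71), and 18 of 21 were above 0. It was highest between Trpm5 and Ptgs1, at 0.71, and between Dclk1 and Alox5, at 0.70. Plcb2, the gene with the fewest reads, correlated at -0.14 with Avil and Ptgs1. Libraries share their group and their number, and once the means of both were removed the average was 0.21 (range -0.26 to 0.72), with Trpm5 and Avil at 0.72 and Pou2f3 and Alox5 at 0.70, whereas Trpm5 and Ptgs1 fell to 0.27. These values describe 18 libraries and carry no test.

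**Figure D5:**
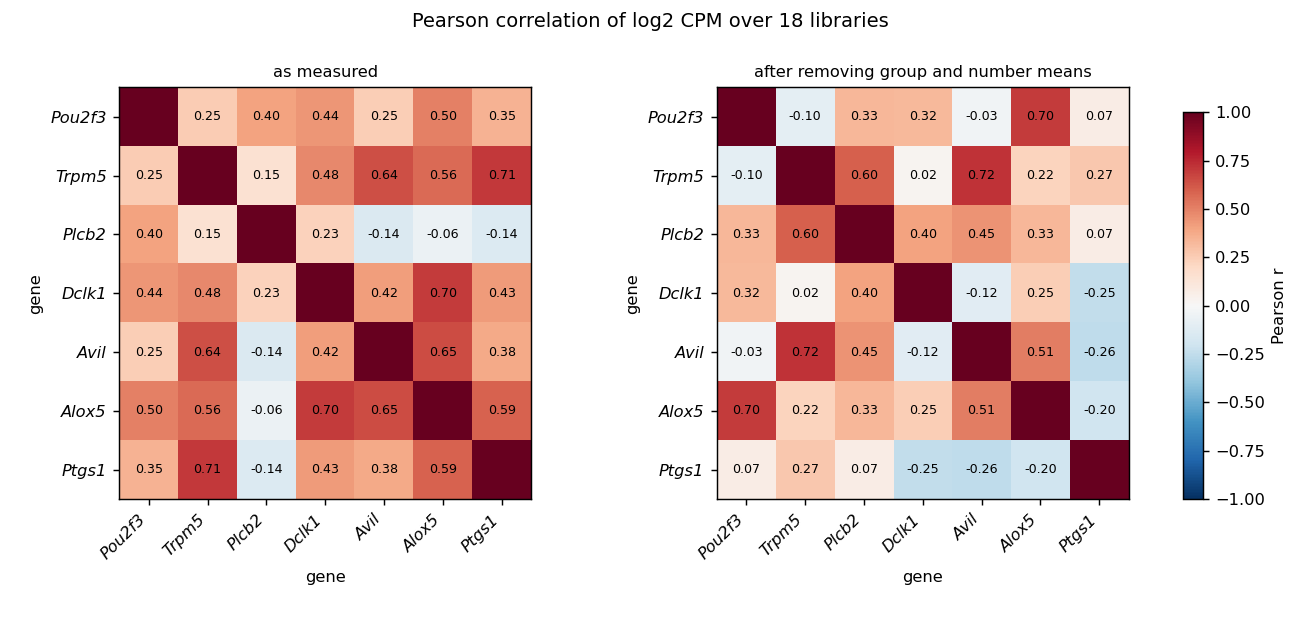
Pearson correlation of log2 CPM between the 7 tested genes over 18 libraries, as measured (left) and after the means of each group and each number were removed (right), with red above 0 and blue below. Trpm5 and Avil stay high at 0.64 and 0.72, and Trpm5 and Ptgs1 drop from 0.71 to 0.27.

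The genes whose pattern was most like the mean standardised log2 CPM of the 7 were Kctd1 (r = 0.85 over 18 libraries), the RNA-binding protein gene Rbm33 (0.85), the polycystin family member Pkd2l2 (0.85), Prrc2c (0.80) and the dynein heavy chain Dync1h1 (0.79). After group and number means were removed these became 0.55, 0.14, 0.63, 0.20 and 0.30. Of the wider tuft list, Siglecf, an inhibitory lectin, came highest at 0.74, followed by Vav1 at 0.70 and Sh2d7 at 0.69, and after the same removal these were 0.55, 0.03 and 0.06. The lowest of that list was Il4ra, at -0.48. The median over its 29 genes was 0.36, against -0.01 over all 15240 other tested genes. Over the Paneth markers it was -0.42 (range -0.50 to -0.26).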

How the data were processed

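RNA sequencing of 18 organoid samples was analysed from the deposited count table. Per the file headers and the methods, the authors sequenced 50-base single-end reads, aligned them with STAR 2.7.3 to GRCm38 and counted reads per gene over exons with featureCounts (2.0.1 in the header, with Ensembl release 102), without strand and without reads that overlap several genes. The values are raw counts, not normalized. Genes were matched to the 9 symbols through a table of gene names, in which 55141 of 55487 identifiers had a symbol.

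Genes passing filterByExpr (15247) were fitted with edgeR 4.0.16 (TMM, robust quasi-likelihood test) over all 18 samples, with group and number (m1 to m5) as terms, and p-values were adjusted by Benjamini-Hochberg over all tested genes at a threshold of 0.05. CPM use TMM library sizes, and log2 CPM a prior count of 2. The use of numbers as a block and as pairs was set in advance. Deviations of same-numbered samples from their group means correlated between each agonist and its vehicle (0.119 to 0.431 for norepinephrine, 0.155 to 0.520 for UK14,304), whereas those of different numbers averaged -0.0704 and -0.0864. Across the agonists the norepinephrine and UK14,304 samples of m4 correlated at -0.212 and those of m5 at 0.0407. The value for m4 does not say which of these libraries departed from the number. UK14,304 m4 correlated with m4 of HCl at 0.150 and with m4 of DMSO at 0.155. For norepinephrine replicate 4 the highest correlation was with UK14,304 m1, at 0.248. Among the HCl samples its correlation was highest with m4, at 0.119. Among the DMSO samples it was higher with m2, at 0.182, than with m4, at 0.125. No pair of replicates agreed within sampling noise (chi-square per gene at least 6.93). Depth per sample was 21866149 to 27850373 counts. The edgeR fits were tested on simulated data with 200 genes changed, each by more than any difference of the 7 genes above. Differences as small as theirs were not checked. Alternatives were no replicate block, DESeq2 1.42.0, DESeq2 size factors, no filter, own vehicle only, a ribosomal RNA split, and samples left out. The 9 genes and all lists were chosen with earlier results of these data known. Named were all 9 genes, the 8 most abundant of the wider list and any past the threshold, and the 5 genes most alike in pattern.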

Additional observations from a re-analysis of the deposited data

Results flagged for a closer look

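Of 36 combinations of gene and group, 2 held a library far from the others of its group, where chance gives about 1 in 20, and both concern Il25. In the norepinephrine group replicate 4 measured 0.0394 CPM, which is 1 read, and the other 4 libraries 0. In the DMSO group replicate 1 measured 0 CPM and the other 3 libraries 1 read each. Both rest on single reads.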

How the results depend on the processing

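Depth limits Gfi1b and Il25, and the spread between libraries, counting error included, the rest. For Pou2f3 most of that spread is counting error (9.05% from counting against 10.2% within groups). In the comparisons of each agonist and of their mean, the 7 genes kept direction and side of the threshold in 137 of 140 results under other settings and in 366 of 378 with 1 sample left out. Without the replicate block 0 of 7 were called, and the block changed the sign under norepinephrine of Trpm5 (0.0106 without it) and Ptgs1 (0.0742), neither called. The no-block fit called 0, 6 and 23 genes in all for norepinephrine, UK14,304 and their mean, against 16, 186 and 358 with it. Without the count filter these were 153, 627 and 1386, with 24 for the difference between agonists, 17 for the vehicles, and 1 of the 9 genes (Dclk1, mean effect). DESeq2 gave 29 and 589 for norepinephrine and the mean, and 1 for the difference. UK14,304 with its own vehicle alone gave 525, and the ribosomal RNA split gave 78 and 176. The cause was not tested. With 1 sample left out the counts ran from 10 to 2529, 68 to 1225 and 154 to 4234, with 0 to 1 for the difference. Of the 9 genes, 0 to 1 were called under UK14,304 and 0 to 2 for the mean. Signs changed for Trpm5 (-0.109 to 0.0451), Alox5 (-0.00534 to 0.208) and Ptgs1 (-0.221 to 0.0802) under norepinephrine, for Plcb2 under UK14,304 (-0.0562 to 0.245), and for Trpm5 (-0.0136 to 0.0679) and Ptgs1 (-0.00941 to 0.138) in the mean. The highest counts came without norepinephrine replicate 4.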

Other observations

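The number m5 had no vehicle sample. Its libraries held the highest sums of the 9 genes within their groups, 57.9 CPM under norepinephrine and 63.5 CPM under UK14,304, and the highest Ptgs1 values, at 2.85 and 2.94 CPM. Without m5 the median log2 difference of the 7 tested genes was 0.15 under norepinephrine and 0.22 under UK14,304, and 0 of 7 were called.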
